A study of Zea mays with 4 samples.

Results

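The sites described here are 403 pairs of binding summits of the maize proteins C3H23 and THX20 that lay at fixed distances from each other on the same chromosome or contig, in either order. One spacing, called short below, comprised a pair of neighbouring distances of about 0.13 kb, and the other, called long, was 1 distance of about 0.29 kb. Both are given to the base pair with the processing of the data. The pairs were taken from 76032 C3H23 and 105867 THX20 peaks, out of 398506 peaks listed for 4 proteins. There were 251 pairs at the short and 152 at the long spacing. Each summit belonged to 1 pair, so the pairs held 403 C3H23 summits (0.530% of that list) and 403 THX20 summits (0.381%). The distances were chosen because pairs were frequent at them, so the number of pairs is given as a description.

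The peaks came from DNA affinity purification sequencing (DAP-seq), in which a Halo-tagged protein made in wheat germ extract is held on beads and offered purified genomic DNA, and the fragments it retains are sequenced. C3H23 (Zm00001d008323), THX20 (Zm00001d017420), CPP2 (Zm00001d031008) and OBF4 (Zm00001d012553) had 1 library each, all made with leaf DNA of the inbred line B73 at 14 DAG without further treatment. The submitters describe the factors as acting downstream of ZmNAC128 and ZmNAC130, which regulate storage reserves in the endosperm. Because the DNA is purified, the lists show where a protein can bind and not where it sits in a cell. The numbers of reads are unknown, and with 1 library per protein no value below has a replicate check or a p-value. Intervals are 95% intervals for counting error only, Wilson intervals for shares unless another kind is named; the share that a count of 0 allows is given as 3 counts of the total, which is not a Wilson limit, and neighbouring pairs are not independent of each other.

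By its name THX20 is a trihelix protein, a plant family whose founding members bind GT-rich elements in promoters. C3H23 is named for the CCCH zinc finger, a domain found in proteins that bind RNA or DNA. CPP proteins bind DNA through cysteine-rich CXC domains, and OBF4 is named as an ocs-element binding factor, a class of bZIP proteins. As background, much of the maize genome consists of copies of transposable elements, so that a stretch of sequence can recur at many places. The sequence under the pairs was not read here, and whether they lie in such copies was not tested.

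C3H23 and THX20 summits stood at the long spacing 152 times and at the distances of the short spacing 134 and 117 times, the 3 most frequent of all distances up to 1 kb. Each spacing was set against pairs at the 20 distances 3 to 12 bp away from it, called reference pairs below (666 for the short spacing, 545 for the long). The reference distances held a mean of 33.3 pairs around the short spacing (21 to 64) and 27.3 around the long spacing (12 to 61). Per distance, the short spacing thus held 3.77 times as many pairs as its reference (exact Poisson interval 3.32 to 4.27), and the long spacing 5.58 times as many (4.73 to 6.54). At least 10 pairs and at least 3 times the mean around them were found at 5 of 976 distances, or 0.512%. Since the members were chosen on these counts, nothing is read from that share.

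The edges of the spacings differed. Just outside the short spacing the counts dropped at once, to 36 pairs at 127 bp and 47 at 130 bp. Around the long spacing the excess was broader, with 94 pairs at 285 bp and 66 at 287 bp, and 71 and 61 pairs at 288 and 289 bp. The reference distances have preferences of their own, among them 125 bp with 64 pairs and 281 and 282 bp with 47 pairs each, so the reference pairs are not free of fixed arrangements. They also include 289 bp, which belongs to the broader excess around the long spacing. Against distances 13 to 22 bp off, the short spacing held 4.01 times as many pairs (3.53 to 4.54) and the long 6.51 times as many (5.52 to 7.63).

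**Figure D1:**
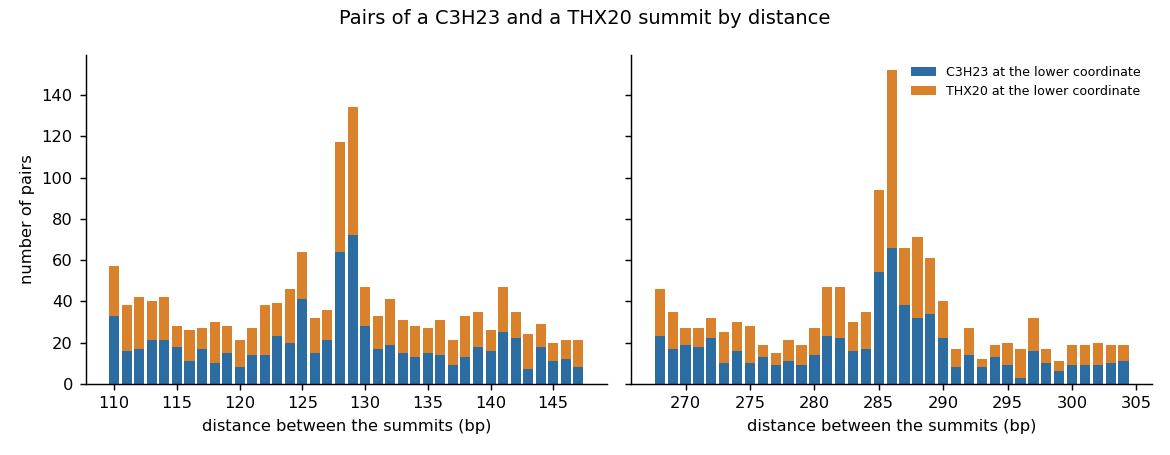
Number of pairs of a C3H23 and a THX20 summit at each distance in bp, with the pairs in which C3H23 has the lower coordinate (blue) stacked under those in which THX20 has it (orange). The columns of the short spacing reach 117 and 134 pairs and that of the long spacing 152, and both colours take part in each.

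The 2 summits came in both orders along the chromosome. C3H23 had the lower coordinate in 136 of 251 short-spacing pairs (54.2%, 48.0 to 60.2%) and in 66 of 152 long-spacing pairs (43.4%, 35.8 to 51.4%). In the reference pairs these shares were 49.5% and 51.4%. All 4 intervals include 50%. For the long spacing this rested on the choice of pairs: among the 98 pairs whose summits were mutually nearest the share was 39.8% (30.7 to 49.7%; reference 54.2%), and without chromosome 5 it was 40.9% (32.8 to 49.6%; reference 52.7%), both below 50%. The order is that of the assembly's numbering, which has no bearing on the strand of a site, and further positions below are therefore counted from the C3H23 summit towards the THX20 summit.

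The strongest pairs are given as examples and need not be typical of the members. They were ranked by the mean percentile of their 2 signals, where a percentile of 100 is the strongest peak of a factor's list and the signal is the authors' own value, on a scale that is not stated. At the short spacing the first lay on chromosome 8, with the THX20 summit at 157776597 (signal 217.3) and the C3H23 summit at 157776725 (signal 96). The second lay on chromosome 1 with THX20 at 116186908 (signal 172) and C3H23 at 116187036 (signal 99). Both had CPP2 summits on the THX20 side, at 1180 and 2629 bp from C3H23 in the first and at 1097, 2494 and 2802 bp in the second. The other leading pairs were on chromosome 9 with C3H23 at 135378875 and THX20 at 135379003, on chromosome 7 at 56137278 and 56137407, and on chromosome 10 at 94457664 and 94457792. Each of these also had a CPP2 summit on the THX20 side, at 1096, 1180 and 1178 bp. CPP2 was not used in choosing or ranking the pairs, but THX20 signal was higher in short-spacing pairs with CPP2 in the fullest windows, as given below.

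Among the long-spacing pairs the strongest lay on chromosome 10, with C3H23 at 64955789 (signal 85.5) and THX20 at 64956075 (signal 172), and it had no CPP2 summit within 3 kb of its C3H23 summit. The next 3 stood in a row on chromosome 5. Their C3H23 summits were at 97795385 (signal 111.4), 97806000 (signal 116) and 97816621 (signal 73), and their THX20 summits at 97795099, 97805714 and 97816335. They were 10615 and 10621 bp apart, had THX20 at the lower coordinate throughout, and had CPP2 summits at 998, 996 and 979 bp on the THX20 side. The fifth was on chromosome 3 with THX20 at 82009216 and C3H23 at 82009502, and its CPP2 summit on the THX20 side was at 949 bp. Positions are the deposited peak start plus 100 bp, in the numbering of the deposited lists. Their genome build is not given in the sources used here, so no gene, exon or promoter is assigned to a pair.

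In 78 of the 251 short-spacing pairs (31.1%) a CPP2 summit lay at a nearly fixed place. A CPP2 summit lay 1179 bp from the C3H23 summit in 35 pairs, 1180 bp in 30 and 1181 bp in 13, always beyond THX20, against means of 1.35 to 1.5 at the offsets around them. One more offset, 1096 bp, held 10 CPP2 summits against a mean of 0.15. These 4 were the offsets within 1500 bp on either side, 0.133% of 3001, at which CPP2 reached at least 10 summits and at least 3 times the mean around them. For wider groups of offsets, windows were drawn around the summits found at the pairs and kept where at least 10 pairs had a summit and their share was at least 3 times that of the reference pairs, so the contrast with the reference is part of how the windows were chosen. From 1168 to 1245 bp a CPP2 summit was present in 137 of 251 pairs (54.6%, 48.4 to 60.6%) and in 4.95% of reference pairs (3.55 to 6.88%). At the mirrored place on the C3H23 side no pair of 251 had one, which allows a share of up to 1.20%. A window just before it, from 1064 to 1099 bp, held CPP2 at 28 pairs (11.2%, 7.83 to 15.7%, reference 1.50%), and 10 pairs had a summit in both.

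Which of the paired summits the CPP2 summit keeps its distance from could not be read from these lists. At the shorter of the distances of the short spacing its median was 1180 bp from C3H23 and 1052 bp from THX20 (56 summits), and at the other, which is wider by 1 bp, it was 1180 bp and 1051 bp (82 summits). In 35 and 47 of them respectively it lay 1050 to 1052 bp from THX20. The arrangement was found in both directions along the chromosome, in 55.1% of pairs with C3H23 at the lower coordinate (46.8 to 63.2%) and 53.9% of pairs with THX20 there (44.8 to 62.7%). It occurred on all 10 chromosomes.

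A second group of CPP2 summits lay farther out on the same side. From 2470 to 2691 bp a CPP2 summit was found at 93 of 251 pairs (37.1%, 31.3 to 43.2%), against 5.11% of reference pairs and 3 pairs at the mirrored place. The nearer and the farther CPP2 position often came together: of the 137 pairs with a summit from 1168 to 1245 bp, 51.1% also had one from 2470 to 2691 bp, compared with 20.2% of the pairs without the first. The last window, from 2792 to 2804 bp, held CPP2 at 13 pairs (5.18%, reference 0.450%). Its summits ranked low in the CPP2 list, at a median signal percentile of 12.8.

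THX20 itself had further summits near the short-spacing pairs. At 281 bp there were 11 and at 282 bp 10, which were 0.0667% of the 2999 offsets looked at. From 281 to 288 bp 27 pairs had one (10.8%, 7.50 to 15.2%), against 1.20% of reference pairs and none at the mirrored place. That places another THX20 summit most often 153 bp beyond the first, the most frequent distance between THX20 summits in their list. Of 367 THX20 couples at 153 bp, 22 (5.99%) included the THX20 summit of a short-spacing pair, and 21 such pairs (8.37%) were in one. Smaller groups of THX20 summits lay between the paired summits, from 63 to 67 bp, and just beyond THX20, from 186 to 196 bp, with 14 pairs each (5.58%, 3.35 to 9.14%). Reference pairs had them in 0.450% and 1.05%. C3H23 had further summits at 15 pairs from 510 to 569 bp (5.98%, reference 1.05%) and at 10 pairs from 600 to 617 bp (3.98%, reference 0.150%). All 10 of the latter also had CPP2 from 1168 to 1245 bp. At 10 pairs (3.98%, reference 0.150%) a C3H23 summit lay at -68 to -61 bp, on the side away from THX20.

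The long-spacing pairs had another set of companions. Further THX20 summits lay at 104 bp, between the paired summits, in 21 pairs and at 477 bp, beyond THX20, in 25 pairs, with smaller groups at 110 bp (12) and 488 bp (11). These 4 offsets made up 0.133% of 3000. From 102 to 111 bp THX20 was present in 39 of 152 pairs (25.7%, 19.4 to 33.1%) against 4.04% of reference pairs, and from 476 to 489 bp in 44 pairs (28.9%, 22.3 to 36.6%) against 1.28%. Both places were empty at the mirrored offsets, which allows a share of up to 1.97%. Of the pairs with the inner THX20 summit 9 had the outer one as well (23.1%), and the outer one was found in 31.0% of the pairs without the inner one. The outer THX20 summits ranked low in their list, at a median signal percentile of 34.7, and the inner ones at 61.0. The distances of 182 and 191 bp between the most frequent of these and the paired THX20 summit were themselves common in the THX20 list, with 313 and 279 couples, of which 6.71% and 8.96% included a long-spacing pair. Those couples held 13.8% and 16.4% of the long-spacing pairs.

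CPP2 was placed near the long-spacing pairs as well, but in several positions. Offsets of 949 and 996 bp held 13 summits each, against means of 0.15 and 0.3, and were 0.0666% of 3001 offsets, and 975 and 976 bp held 9 each. From 948 to 998 bp, 74 of 152 pairs had a CPP2 summit (48.7%, 40.9 to 56.6%), against 10.6% of reference pairs (8.32 to 13.5%) and 1 pair at the mirrored place. Counted from THX20, the positions were 663, 689, 690 and 710 bp. OBF4 had a place of its own on the opposite side. At offsets of -1558 to -1536 bp, which is beyond C3H23 and away from THX20, 27 pairs had an OBF4 summit (17.8%, 12.5 to 24.6%), compared with 0.917% of reference pairs (0.392 to 2.13%) and none of the 152 on the THX20 side. Of these 27 pairs 13 had the outer THX20 summit (48.1%), and 24.8% of the pairs without OBF4 there had it. No single OBF4 offset within 1500 bp reached 10 summits at either spacing (0%), and neither did any further C3H23 offset (0%). The OBF4 place at -1558 to -1536 bp lies outside that range, so this count says nothing about single offsets within it.

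**Figure D2:**
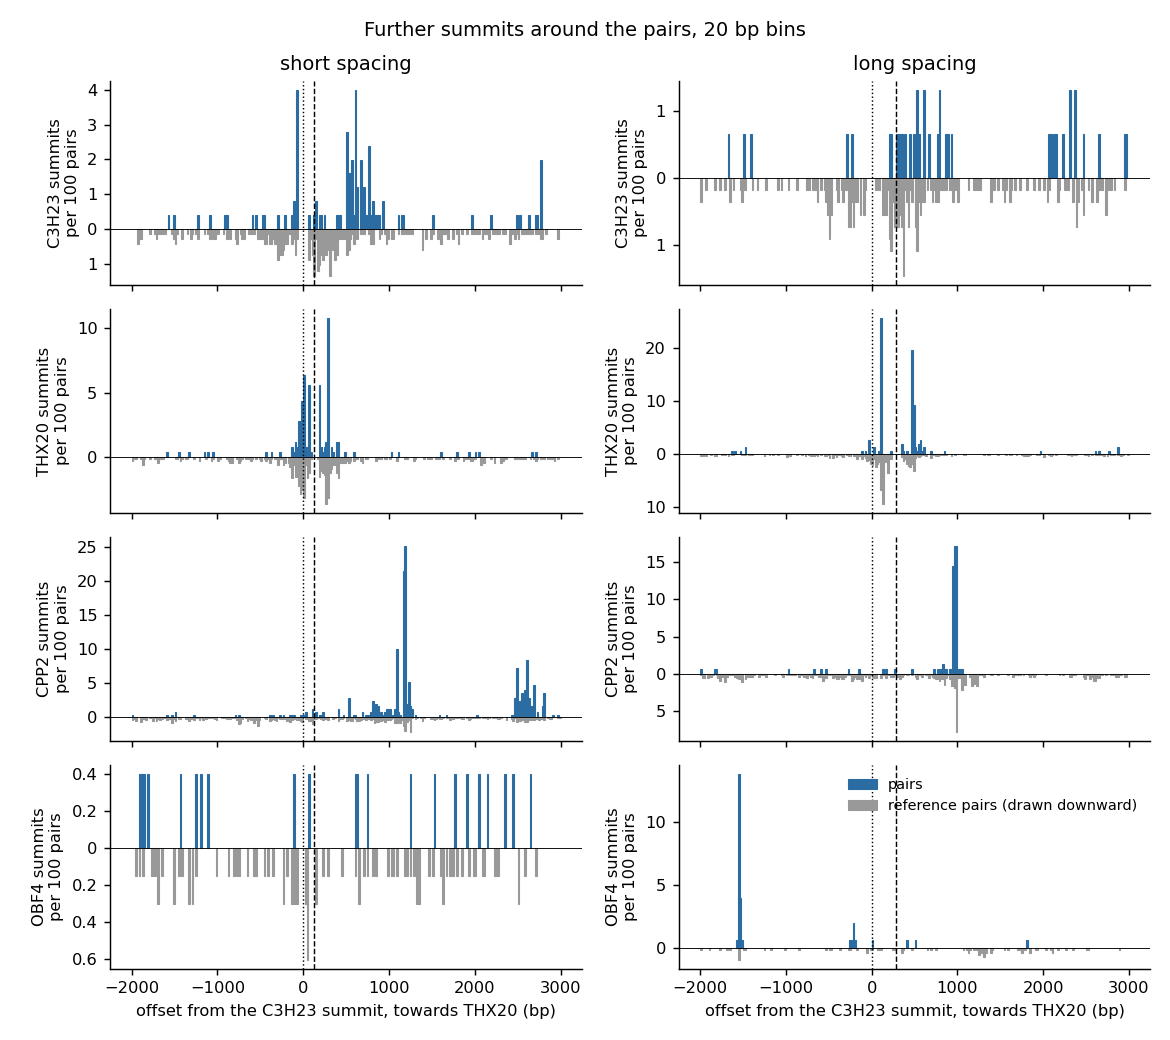
Summits of each factor per 100 pairs in 20 bp bins, by offset in bp from the C3H23 summit (dotted line) towards the THX20 summit (dashed line); members are drawn upward and reference pairs downward, each panel has its own scale, and the bins of the paired summits themselves are left out. CPP2 stands at 1168 to 1245 and 2470 to 2691 bp at the short-spacing pairs and from 948 to 998 bp at the long-spacing pairs, THX20 near 104 and 477 bp and OBF4 at -1558 to -1536 bp at the long-spacing pairs.

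The 2 sides of the pairs differed. Within 1 kb beyond THX20, 110 of 152 long-spacing pairs (72.4%, 64.8 to 78.9%) had a summit of at least 1 of the 4 factors, but within 1 kb beyond C3H23 only 16 did (10.5%, 6.58 to 16.4%). Reference pairs had such summits in 52.7% and 35.0% on the same sides. On the C3H23 side of the long-spacing pairs, C3H23 was found at 1.32%, THX20 at 3.95% and CPP2 at 2.63%, against 9.17%, 14.9% and 14.5% of reference pairs. OBF4 went the other way there, at 6 of 152 pairs (3.95%, 1.82 to 8.34%) against 2.02% of reference pairs (1.13 to 3.58%), with overlapping intervals. The short-spacing pairs had a smaller difference of the same direction, 59.0% beyond THX20 and 23.1% beyond C3H23 (44.0% and 38.1% in reference pairs). On their THX20 side 25.1% had a further C3H23 summit within 1 kb (20.1 to 30.8%), compared with 113 of 666 reference pairs (17.0%).

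Counted without regard to side, CPP2 lay within 1 kb of the nearer summit of 181 of 403 pairs (44.9%, 40.1 to 49.8%) and of 37.1% of reference pairs (34.4 to 39.8%). The share was 57.9% for the long-spacing pairs (49.9 to 65.5%; reference 45.1%) and 37.1% for the short-spacing pairs (31.3 to 43.2%; reference 30.5%). The direction of this comparison was set by the distance allowed and by the strength of the peaks. Within 500 bp the share was below that of reference pairs, at 9.93% against 17.9% for all pairs, 5.26% against 20.2% for the long spacing and 12.7% against 16.1% for the short. Within 2 kb it was 70.2% against 51.6% for all pairs, which came from the short spacing (76.9% against 47.9%), while the long spacing stood at 59.2% against 56.1%. With the stronger 50% of each list the share within 1 kb was 17.6% and that of reference pairs 18.2%, and the spacings went opposite ways, with 36.4% against 24.5% for the long spacing and 8.70% against 13.1% for the short.

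OBF4 lay within 1 kb of 13 of 403 pairs (3.23%, 1.89 to 5.44%), against 6.03% of reference pairs (4.82 to 7.51%). The difference lay in the short spacing, with 1.99% (0.854 to 4.58%) against 6.01% (4.44 to 8.08%), while the long spacing had 8 of 152 (5.26%) against 6.06% (4.34 to 8.38%). Within 2 kb, a range that takes in the OBF4 place beyond C3H23, the shares were 24.3% (18.2 to 31.7%) against 12.5% (9.96 to 15.5%) at the long spacing and 6.77% (4.27 to 10.6%) against 80 of 666 pairs (9.76 to 14.7%) at the short. Over all pairs they were 13.4% and 12.2%.

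The arrangements also recurred at a fixed separation. Between 1 and 20 kb there were 19 couples of long-spacing pairs, and all 19 were 10606 to 10655 bp apart and ran in the same direction. They involved 37 of the 152 pairs (24.3%, 18.2 to 31.7%), of which 1 had a neighbour on each side. Among the short-spacing pairs there were 20 couples, 11 of them 10831 to 10887 bp apart, and both pairs of a couple had the same direction in all 20. Reference pairs had 16 couples around the long spacing, of which none fell between 10606 and 10655 bp, and 9 around the short spacing, of which 2 fell between 10831 and 10887 bp. These ranges were taken from the couples themselves, so a low reference count in them is in part a matter of choice. The reference couples around the long spacing had a median separation of 10595.5 bp, and 15 of 16 ran in the same direction. Around the short spacing the median was 10876 bp, with 7 of 9 in the same direction. A pair that recurs brings both of its summits with it. Single summits were therefore bound to recur at least about as often as whole pairs, and nothing is read from that. At 10606 to 10655 bp on either side, the THX20 summit of a long-spacing pair had another THX20 summit in 61 of 152 pairs (40.1%, 32.7 to 48.1%; reference 3.67%), and the C3H23 summit another C3H23 summit in 45 pairs (29.6%, 22.9 to 37.3%; reference 0.734%). At 10831 to 10887 bp this held for the THX20 summit of 55 of 251 short-spacing pairs (21.9%) and for the C3H23 summit of 45 (17.9%), and in their reference pairs for 18 and 16 of 666. The ranges chosen from the members' couples shape these contrasts too. In the wider range of 10000 to 11000 bp the C3H23 contrast at the long spacing was smaller. A further C3H23 summit lay there in 20.4% of pairs on the C3H23 side (reference 8.81%) and 19.1% on the THX20 side (reference 5.69%).

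**Figure D3:**
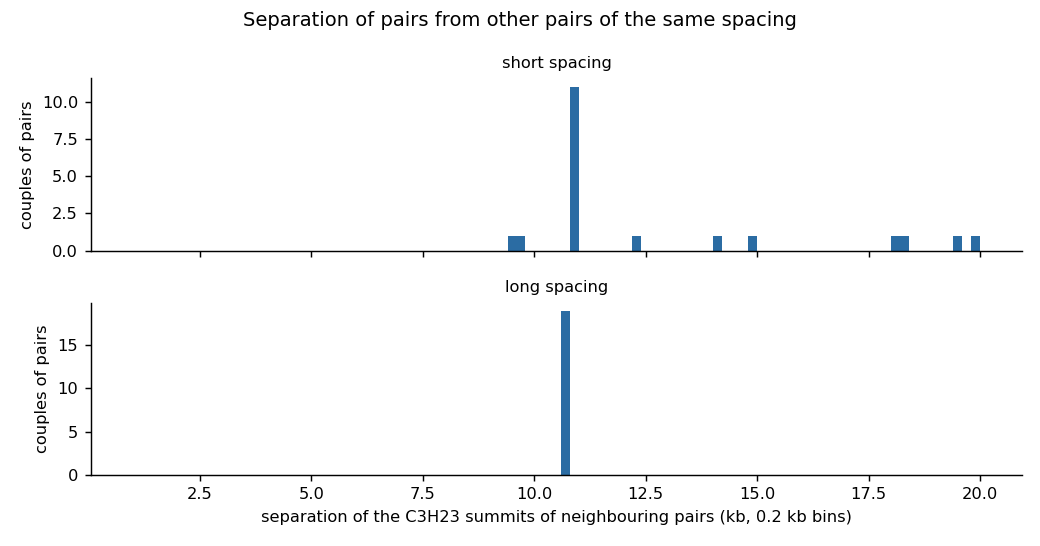
Couples of pairs of the same spacing by the separation of their C3H23 summits, from 1 to 20 kb in 0.2 kb bins, with the number of couples on the vertical axis. All 19 couples of long-spacing pairs lie between 10606 and 10655 bp, and 11 of 20 couples of short-spacing pairs between 10831 and 10887 bp.

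The 2 spacings did not occur together. No long-spacing pair of 152 shared a summit with a short-spacing pair, which allows a share of up to 1.97%, and none of the 251 did so the other way round (up to 1.20%). No pair of one spacing lay within 1 kb of the other, and the closest C3H23 summits of the 2 kinds were 5871 bp apart. Reference pairs give little contrast. Around the short spacing 1 of 666 (0.150%) shared a summit with a long-spacing pair, and around the long spacing 22 of 545 (4.04%, 2.68 to 6.04%) shared one with a short-spacing pair. Of these 22, 11 were at 281 and 10 at 282 bp, where the short-spacing pairs have their further THX20 summits. Mutually nearest pairs cannot share a summit in this way by construction, because each summit keeps only its smallest distance, so nothing is read from that setting. When pairs within 1 kb of each other were joined, 403 places remained, each with 1 pair.

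The pairs were concentrated in the middle of the chromosomes. In the central 20% of chromosome length there were 123 pairs and in the outermost 10% at either end together 34, a ratio of 3.62 (exact interval 2.46 to 5.46). The ratio was 1.49 for reference pairs (1.24 to 1.80), 1.41 for all C3H23 peaks (1.37 to 1.44) and 1.29 for all THX20 peaks (1.26 to 1.31). Both spacings had it, with 75 central and 22 outer pairs at the short spacing (3.41, 2.10 to 5.76) and 48 and 12 at the long spacing (4, 2.09 to 8.27). Their reference pairs stood at 1.25 (0.971 to 1.60) and 1.87 (1.40 to 2.50), and for the long spacing the intervals overlap. With each chromosome cut into 10 equal parts, part 4 was the fullest at both spacings, with 18.5% of the short-spacing pairs and 21.1% of the long-spacing pairs. It was also the fullest for their reference pairs, with 17.0% and 16.1%, and for all THX20 peaks, with 12.4%.

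**Figure D4:**
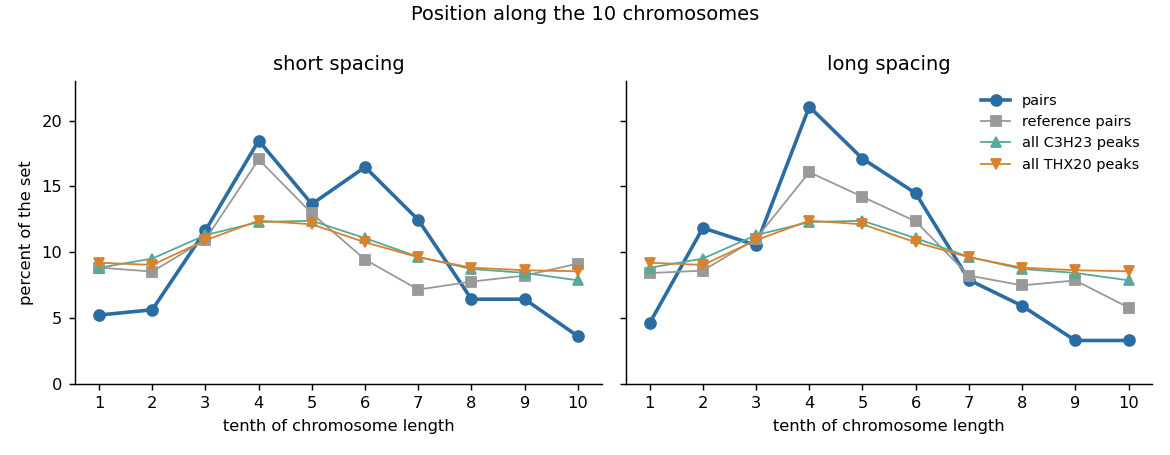
Percent of each set on the 10 chromosomes that falls in each of 10 equal parts of chromosome length, for the pairs (blue), their reference pairs (grey) and all C3H23 (green) and THX20 (orange) peaks. The pairs hold 5.2% and 4.6% in the first part, 3.6% and 3.3% in the last, and most in part 4, as do their reference pairs.

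The 2 spacings differed in their distribution over whole chromosomes. Chromosome 1 had 49 pairs at the short spacing and 10 at the long spacing, or 0.160 per Mb (exact Poisson interval 0.118 to 0.211) and 0.0326 per Mb (0.0156 to 0.0599). That was 19.7% and 6.58% of the pairs on chromosomes, against 14.9% and 13.6% of the reference pairs, of which chromosome 1 held the most at both spacings. Chromosome 5 had 30 and 25, and its 0.112 per Mb at the long spacing (0.0723 to 0.165) was the highest of the 10 chromosomes. That interval overlapped those of all others but chromosome 1. Chromosome 5 held 16.4% of the long-spacing pairs and 11.8% of their reference pairs. Chromosome 6 had the fewest pairs at the short spacing, 5, or 0.0287 per Mb (0.00933 to 0.0671). This was 2.01% of them, against 7.76% of their reference pairs. The other chromosomes had 13 to 29 pairs at the short spacing, and at the long spacing 11 to 21. Contigs not placed on a chromosome held 2 pairs at the short spacing and none at the long.

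THX20 summits of the pairs were among the stronger peaks of their list, and C3H23 summits were not. The median THX20 signal was 50 at the short spacing (quartiles 31.3 and 71.8) and 52.9 at the long spacing (32.6 and 80.7), with a range of 13.1 to 280.7 over both, where the median of the whole list was 32. In percentiles the medians were 72.6 (order-statistic interval 67.1 to 76.7) and 74.7 (67.5 to 78.4), against 49.4 (45.3 to 53.6) and 51.1 (47.0 to 55.2) for reference pairs. Of the THX20 summits of long-spacing pairs 23.7% (17.6 to 31.0%) were in the top 10% of the list, and of those at the short spacing 14.3% (10.5 to 19.2%), with 7.16% and 7.06% in the reference pairs.

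C3H23 summits had a median signal of 40 at the short spacing and of 34.8 at the long spacing, where the median of the list was 36. Their median percentile at the short spacing, 57.0 (50.8 to 62.4), equalled that of the reference pairs. At the long spacing it was 46.6 (41.7 to 53.4) against 56.0 (50.6 to 60.2), and these intervals overlap. Among the 98 mutually nearest long-spacing pairs it was 47.4 (40.2 to 55.2) against 47.8 in reference pairs. In the other settings it stayed farther below the reference. Ranked by the deposited −log10 p-value it was 42.4 (37.5 to 47.8) against 53.1, and without chromosome 5 it was 46.5 (40.2 to 51.5) against 55.2. Strong C3H23 peaks were few at the long spacing: 2 of 152 (1.32%, 0.362 to 4.67%) were in the top 10% of the list, against 11.0% of reference pairs (8.65 to 13.9%).

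**Figure D5:**
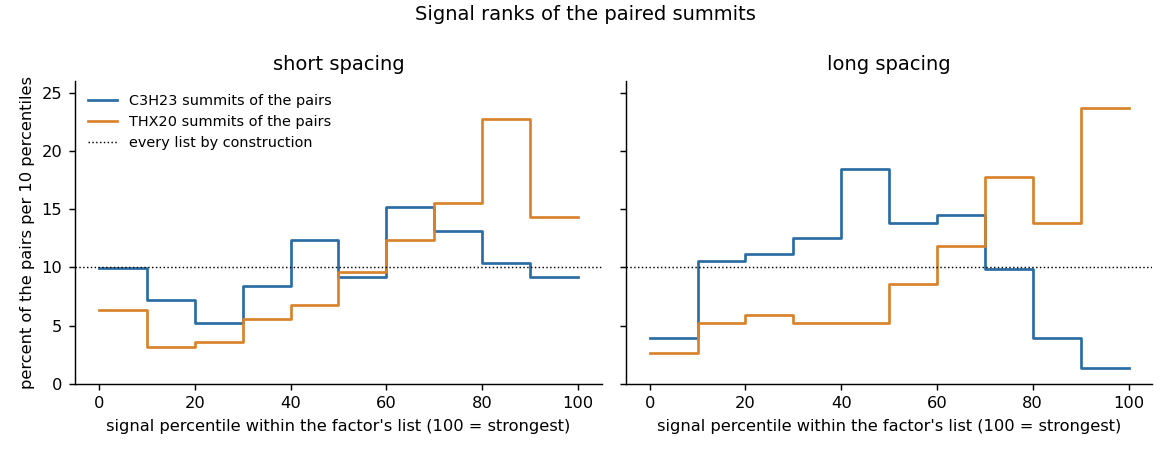
Percent of the pairs whose C3H23 (blue) or THX20 (orange) summit falls in each 10 percentiles of signal within that factor's list, where 100 is the strongest and each class of a whole list holds about 10% (dotted line). THX20 lies to the right at both spacings, with 23.7% in the top 10% at the long spacing, while 1.32% of C3H23 summits at the long spacing are there.

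THX20 signal was higher in short-spacing pairs with a CPP2 summit in either of the fullest CPP2 windows. The median THX20 percentile was 81.8 (79.4 to 86.4) in the 93 pairs with a CPP2 summit from 2470 to 2691 bp and 63.1 (59.0 to 69.9) in the 158 without. For the summit from 1168 to 1245 bp the values were 77.1 (73.1 to 80.9) with and 61.0 (50.2 to 70.6) without. With and without a CPP2 summit the intervals overlapped for the other windows, from 1064 to 1099 bp with 77.3 (63.5 to 84.4) and 72.2 (65.8 to 76.4) and from 2792 to 2804 bp with 79.0 (49.4 to 87.8) and 72.2 (66.1 to 76.4). The C3H23 percentiles of the pairs with and without the fuller windows had overlapping intervals, 62.4 (55.2 to 70.5) and 53.4 (45.2 to 60.2) for the farther CPP2 summit. At the long spacing the intervals with and without CPP2 from 948 to 998 bp overlapped for both factors. Lists of peaks hold only sites over a threshold, and whether a weaker THX20 peak goes with CPP2 binding under that threshold was not tested.

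Seen from the other lists, the pairs were a part of wider arrangements. There were 561 couples of THX20 and CPP2 summits 1050 to 1052 bp apart, of which 82 (14.6%, 11.9 to 17.8%) included a short-spacing pair, and these were 32.7% of such pairs. Of 170 C3H23 and CPP2 couples 1179 to 1181 bp apart, 78 (45.9%, 38.6 to 53.4%) included one, 31.1% of the pairs. For long-spacing pairs the shares were 24.1% of 54 couples at 949 bp and 26.5% of 49 couples at 996 bp, and each of these offsets was found in 8.55% of the pairs.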

How the data were processed

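DAP-seq peak lists of 4 maize factors were used, 1 library each, grouped by the factor in the sample title; file names carry other protein names, and the sample records were followed. The submitters' processing notes list Trimmomatic 0.39 and Bowtie2 2.4.1. Caller, control and genome build: not given in the sources used here. The deposited lists are in a 10-column layout with peaks 201 bp wide and the summit 100 bp after the start. The authors' signal value ordered the peaks of each list. The −log10 p-value deposited beside it served as an alternative ranking, and the authors' score and −log10 q-value were not used further. Depth is unknown.

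The short spacing is 128 or 129 bp and the long spacing 286 bp between summits. All pairs of C3H23 and THX20 summits up to 1 kb apart were tabulated. Reference pairs lay 3 to 12 bp off the nearest spacing. Chromosome length ran to the last peak of any list. The spacings, windows of offsets and separations were chosen with earlier results of these data known. The named sites are the 5 pairs per spacing with the best mean signal percentile; the rule's further classes, places with several pairs or with both spacings, were empty. The offset rule was at least 10 summits and at least 3 times the mean of the 20 offsets 3 to 12 bp off. Windows within 3 kb joined 10 bp bins with at least 3 summits across gaps of up to 2 bins and ran from the first to the last summit in them. The pairing and offset steps were tested on simulated data. Alternatives were stronger peaks, other pair definitions, sequences, reference distances, rankings and neighbour distances. A gene table of another assembly was not used. Calculations used Python 3.11.15, numpy 2.4.6, pandas 2.3.3, scipy 1.17.1 and matplotlib 3.10.9.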

Additional observations from a re-analysis of the deposited data

How the results depend on the processing

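No paired analysis was possible because a single library stood for every factor, so that leaving one out was impossible too. Of 65 alternative values for the 11 main results, 54 lay within the counting interval of the value reported and 11 moved beyond it. The direction against the reference pairs turned in 3: CPP2 within 500 bp (9.93% against 17.9%), CPP2 among the stronger peaks, and OBF4 within 2 kb (13.4% against 12.2%). The share of long-spacing pairs with C3H23 at the lower coordinate fell below 50% with its whole interval among mutually nearest pairs (39.8%) and without chromosome 5 (40.9%). Among peaks of the upper 50% by signal in their lists, pairs over reference rose to 6.02 at the short and 7.10 at the long spacing, and by construction the median percentiles rose to 71.0 for C3H23 and 83.2 for THX20 (reference pairs 75.3 and 75.8). In the same setting the share with CPP2 within 1 kb was 17.6% and with OBF4 1.18% (reference 18.2% and 3.18%), from shorter lists. Counting distances within 1 bp of the spacing gave 2.51 and 3.82, since the added distances held fewer pairs. CPP2 was present in 70.2% within 2 kb. Leaving out the chromosome with the most pairs (chromosome 1 for the short spacing, chromosome 5 for the long) moved none of the 11 values beyond its interval. Neither did mutually nearest pairs or the 10 chromosomes alone. Using 1 pair per place left the members unchanged, so that setting could act only through the reference pairs. Among mutually nearest pairs the shares with the other spacing on the same summit were fixed by construction. Such values are counted among the 54 and are no check. The unknown depth and the threshold of each list limit every count.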
